A study of Mus musculus with 4 samples.

Results

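Th17 cells are helper T cells that secrete IL-17, and H3K27ac, acetylation of lysine 27 on histone H3, marks active promoters and enhancers. The genes described here encode 3 FOXO transcription factors (Foxo1, Foxo3, Foxo4) and 2 SGK kinases (Sgk1, Sgk3). Their peaks were taken from the deposited list by position, as every peak that overlapped one of the 5 genes or the 100 kb on either side of it in GRCm38. This gave 75 of 56285 peaks. The cells were grown from naive CD4+ T cells (strain C57BL/6). They were stimulated through CD3ε (antibody at 0.25 µg/mL) and CD28 (1 µg/mL) and polarised with 0.1 ng/mL TGF-β and 20 ng/mL IL-6 for 72 h, as the treatment labels state, although the growth text gives TGF-β as a range. The libraries were 2 immunoprecipitations and their 2 matched inputs, from 2 biological replicates. The list has positions and no value per library, so no value below has a replicate error, and the read depth is unknown. The peak names contain the words WT and Ddx5, while the labels name a strain and no genotype.

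FOXO factors are forkhead transcription factors that act in the nucleus of resting cells, where they keep lymphocytes quiescent and sustain homing and survival genes. PI3K signalling activates the kinases AKT and SGK, which phosphorylate FOXO factors so that they are bound by 14-3-3 proteins and kept in the cytoplasm. SGK1, named as a serum- and glucocorticoid-regulated kinase, is known in Th17 cells for inactivating FOXO1 and thereby favouring the IL-23 receptor. SGK3 differs from SGK1 in carrying a PX domain, which binds a phosphoinositide of endosomes.

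Each of the 5 genes held at least 1 peak, as 59.7% of all protein-coding genes did, but the kind of marking differed between them. Foxo1 and Foxo3 had broad peaks over their starts, of 6626 and 4789 bp. Foxo4 had peaks at both ends in a cluster shared with Il2rg. Sgk1 had no peak at either annotated end and 13 peaks inside, the widest over its last RefSeq transcript starts. Sgk3 had a single narrow peak of 595 bp at an end. By a peak within 1000 bp of an annotated gene end, 4 of the 5 genes were marked, against 53.8% of all 21631 protein-coding genes. With so few genes this share is a description and sets the members apart from no other group.

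Transcript starts and promoter sequences are RefSeq's on GRCm38.p6, in a table that matched 3 of the 5 genes, Foxo1, Foxo3 and Sgk1, and not Foxo4 or Sgk3. The 250 bases before a start are shown for the Foxo1 and Foxo3 starts, for the Sgk1 start farthest upstream, which lay outside the peaks, and for the last 2 Sgk1 starts, which lay inside 1 peak. They are written 5′ to 3′ on the strand of the gene, which is the minus strand for Foxo3 and the plus strand for the others. Capitals mark matches, on either strand, to any of 7 motifs. The longest is the palindromic glucocorticoid response element, given by name because of its length. The motif of FOXO factors was searched as GTAAACA and that of STAT factors as TTCNNNGAA. The motif of AP-1 was searched as TGANTCA. Among general promoter motifs, the GC box was searched as GGGCGG. The CCAAT box was searched as its name spells it. The TATA box was searched as TATAAA. In the first Sgk1 sequence a CCAAT match and a STAT match overlap and appear as 1 run.
Foxo1, chr3:52268087-52268336: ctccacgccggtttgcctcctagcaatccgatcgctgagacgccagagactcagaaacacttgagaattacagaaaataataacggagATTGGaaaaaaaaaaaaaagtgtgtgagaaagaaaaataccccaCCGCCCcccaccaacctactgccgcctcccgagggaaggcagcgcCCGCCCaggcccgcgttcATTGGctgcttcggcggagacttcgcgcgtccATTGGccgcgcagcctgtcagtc
Foxo3, chr10:42276696-42276945: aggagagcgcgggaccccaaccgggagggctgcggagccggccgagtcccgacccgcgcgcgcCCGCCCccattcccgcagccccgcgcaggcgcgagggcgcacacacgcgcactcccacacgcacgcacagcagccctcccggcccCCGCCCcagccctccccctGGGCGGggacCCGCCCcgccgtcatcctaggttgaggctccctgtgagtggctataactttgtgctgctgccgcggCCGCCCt
Sgk1 start 1, chr10:21881934-21882183: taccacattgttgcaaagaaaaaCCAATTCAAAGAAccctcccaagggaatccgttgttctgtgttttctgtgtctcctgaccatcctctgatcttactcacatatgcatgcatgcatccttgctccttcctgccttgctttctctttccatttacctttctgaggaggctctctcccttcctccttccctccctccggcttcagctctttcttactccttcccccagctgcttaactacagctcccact
Sgk1 start 5, chr10:21993640-21993889: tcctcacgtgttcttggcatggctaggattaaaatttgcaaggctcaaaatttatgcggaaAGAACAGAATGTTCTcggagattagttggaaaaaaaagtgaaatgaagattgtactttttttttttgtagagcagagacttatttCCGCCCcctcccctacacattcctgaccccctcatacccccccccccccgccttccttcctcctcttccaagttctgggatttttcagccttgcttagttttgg
Sgk1 start 6, chr10:21994416-21994665: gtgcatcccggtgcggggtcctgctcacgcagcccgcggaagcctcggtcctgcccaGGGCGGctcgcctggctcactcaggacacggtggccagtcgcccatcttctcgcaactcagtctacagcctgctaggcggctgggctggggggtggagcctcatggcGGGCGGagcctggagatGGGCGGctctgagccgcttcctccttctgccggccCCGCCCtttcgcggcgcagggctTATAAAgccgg

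Foxo1 encodes the FOXO factor best known for the Il7r gene of naive T cells. The gene (Gene ID 56458) spans 81773 bp on chromosome 3, 52268337 to 52350109, on the plus strand with 1 RefSeq transcript. Its start lay in a peak of 6626 bp, at 52267131 to 52273756, which reached 1206 bp upstream and 5419 bp downstream of the start. This width was at percentile 95.9 of the peaks over 10382 protein-coding gene starts that lay in a peak, whose median was 1918.5 bp with 745 bp upstream and 1069 bp downstream. The start peak held 71.5% of the 7579 acetylated bp inside Foxo1. The remaining 6 peaks inside the gene were 173 to 578 bp wide and lay up to 29896 bp from the start. Marking was therefore concentrated near the start, with 96.2% of the acetylated length in the first and no peak in the last of 3 equal parts of the gene.

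Around Foxo1 the flanks held 15 more peaks and no other protein-coding gene. Upstream, 4 peaks of 105 to 756 bp lay between 4904 and 10693 bp from the start. Farther upstream, 3 peaks lay 68380 to 72443 bp away, the widest of them 2664 bp and the second widest peak of the whole Foxo1 window. A single peak of 295 bp lay near the far edge of the window. Downstream of the gene's end, 7 peaks of 174 to 1275 bp lay 19290 to 97629 bp away. Together the flanks had 12980 acetylated bp, more than the gene itself.

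Foxo3 encodes a FOXO factor known for apoptosis and stress resistance genes. The gene (Gene ID 56484) spans 94851 bp on chromosome 10, 42181845 to 42276695, and starts at the higher coordinate. A peak of 4789 bp, at 42273710 to 42278498, covered the start with 1803 bp upstream and 2985 bp downstream, at percentile 92.0 by width. Inside the gene there were 9 peaks and 9749 acetylated bp, the largest acetylated length inside a gene among the 5. Downstream of the start, 2 pairs of peaks followed. The nearer pair was 1763 and 667 bp wide and lay 5630 to 8169 bp from the start, and the farther pair was 1283 and 381 bp wide and lay 14188 to 15977 bp from it. These 5 peaks also overlapped Gm38485, a noncoding RNA gene that lies within Foxo3, so the list does not assign them to either gene.

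Unlike Foxo1, Foxo3 also had marking toward its finish. A group of 3 peaks, 1759, 473 and 117 bp wide, lay 10527 to 13470 bp from the annotated finish, and these held 24.1% of the acetylated length in the gene. Outside the gene the marking was sparse, with 3 peaks of 238 to 1069 bp, all beyond the finish. No peak lay upstream of the start peak within 100 kb, and the next one was 197990 bp from the gene. The gene itself thus held 73.9% of the acetylated bp in the Foxo3 window, against 36.9% in that of Foxo1.

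Foxo4, the X-linked member of the family, is the shortest of the 5 genes. It (Gene ID 54601) spans 6613 bp, 101254261 to 101260873. A peak of 2153 bp covered the lower-coordinate end, from 766 bp outside the gene to 1386 bp inside. At the other end lay peaks of 125, 1480 and 785 bp, the last 923 bp beyond the gene. Foxo4 was thus marked within 1000 bp of both ends, which was so for 12.2% of 7741 protein-coding genes under 10 kb long. Acetylation covered 33.1% of the gene, or 2191 bp.

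The marking around Foxo4 ran on into its neighbours. With gaps of up to 12.5 kb bridged, 8 peaks formed 1 cluster of 14029 acetylated bp (chromosome X, 101253495 to 101275255). It overlapped Foxo4, Gm614, Il2rg, which encodes the common gamma chain of cytokine receptors, and Med12, a Mediator subunit gene. The widest peak of the cluster, 4486 bp, lay on Il2rg and not on Foxo4. The cluster ranked 766 of 18748 by covered length and passed the 13241 bp set by the slope of the ranked curve. Foxo4 was the 1 member gene overlapped by such a domain, against 6.37% of all protein-coding genes. The clusters over the Foxo1 and Foxo3 starts had 10684 and 8883 bp, below that minimum. Only 9.82% of the acetylated bp in the Foxo4 window lay inside Foxo4.

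**Figure D1:**
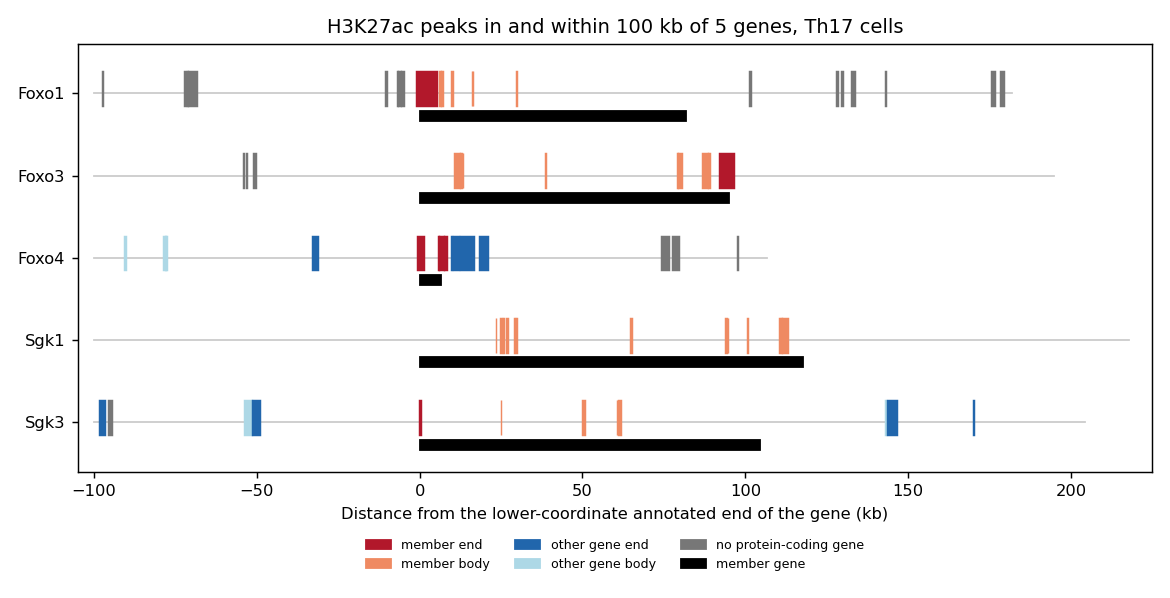
Peaks in and within 100 kb of each gene, by distance in kb from the lower-coordinate annotated end of the gene (black bar); coloured boxes are peaks, to scale, by the class of place they overlap. Foxo1 and Foxo4 have peaks at the lower end and Foxo3, which starts at its higher end, has its widest peak there, while all 13 Sgk1 peaks lie inside the gene and away from its ends.

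Sgk1 was marked inside its annotated span, with no peak in the 100 kb on either side. The gene (Gene ID 20393) spans 117720 bp on chromosome 10, 21882184 to 21999903, on the plus strand, with 6 RefSeq transcripts and 6 starts in the table. All 13 of its peaks lay inside the gene and 0 lay in the 100 kb flanks. The nearest peak outside was 221328 bp below the gene and 148496 bp above it. Of 12908 protein-coding genes with a peak inside, 3.93% had none in their flanks, and of 700 with at least 10 peaks inside, 2.71% had none. A lack of gene-end peaks was more common, at 12.4% of those 700 genes. Sgk1 is in this class of 700 by its peaks as deposited. It had 7 peaks once those at most 1000 bp apart were merged, and 3 of its peaks were 500 bp or wider. Inside and flank here follow the annotated span, which begins at start 1, 23351 bp from any peak. Starts 5 and 6, which lay in a peak, are 111706 and 112482 bp after start 1. Counted from these starts, every Sgk1 peak but the widest lies upstream, so the empty flanks depend on the long annotation.

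The peaks of Sgk1 did not mark all of its starts. Start 1, at 21882184, lay 23351 bp from the nearest peak. Start 2, at 21978672, and start 3, at 21986104, lay 1701 and 3133 bp from one. Start 4, at 21992223, lay 422 bp before a peak of 157 bp, which was followed by another of 307 bp. Start 5, at 21993890, and start 6, at 21994666, both lay inside the widest peak of the gene, 1870 bp at 21993451 to 21995320. Hence 3 of the 6 starts lay within 1000 bp of a peak, against 54.4% of 21045 starts of protein-coding genes, and 2 lay inside one, against 49.3%.

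Starts 5 and 6 are thus the internal starts of Sgk1 that lie in a peak. The peak reached 439 bp upstream and 1430 bp downstream of start 5, and 1215 bp upstream and 654 bp downstream of start 6, so the list does not tell which of the 2 starts it belongs to. Start 6 lies 112482 bp from start 1, and the peak ends 4583 bp before the annotated finish, so it lay outside the 1000 bp windows at both gene ends. By width the peak was ordinary, at percentile 48.1 of the peaks over gene starts. Such a shift was not rare: among 802 genes with starts at least 10 kb apart, 14.6% had a peak within 1000 bp of a later start and none at the first. The reverse pattern, a peak at the first start and at no later one, was found in 26.6%. A peak at a start does not measure transcription, and no RNA was measured here.

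**Figure D2:**
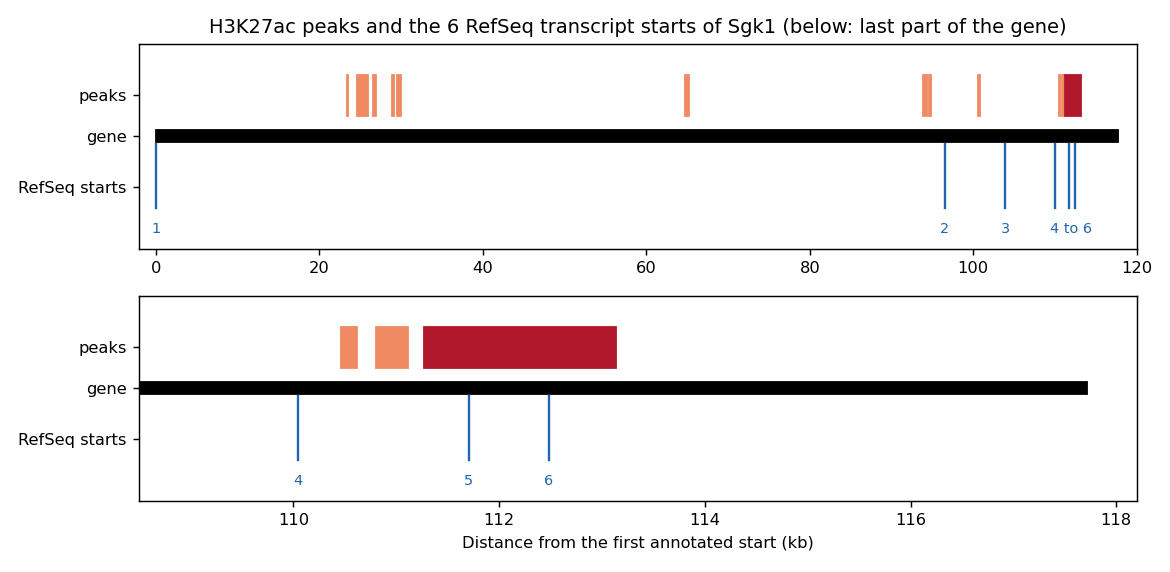
Peaks (boxes, dark red where at least 1000 bp wide) and RefSeq transcript starts (blue lines, numbered from upstream) along Sgk1, in kb from the first annotated start; the lower panel enlarges the last part of the gene. Starts 5 and 6 lie under the 1870 bp peak, start 4 lies 422 bp before the nearest peak and start 1 has no peak within 23351 bp.

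The sequences before the last 2 Sgk1 starts differ in kind. The 250 bases before start 6 were 70.4% G or C with 22 CpG, 4 GC box matches and a TATA box match that begins 11 bases before the start. Those before start 5 were 44.8% G or C with 5 CpG and 1 GC box match. For comparison, starts inside a peak had medians of 61.2% and 17 CpG, and starts outside peaks 49.6% and 3 CpG. Starts 1 to 4, which lay outside the peaks, had 43.6 to 48.4% G or C and 2 to 7 CpG. Start 4 had a TATA box match 28 bases before it.

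The sequence before start 5 held the 15 letters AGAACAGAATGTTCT, at chr10:21993701-21993715 on the plus strand. They match the palindromic glucocorticoid response element, a motif added to the search after the sequence had been read. The match begins 189 bases before start 5 and 965 bases before start 6, and it lies inside the wide peak, 250 bp from its lower edge. Among the 250-base windows before 21045 starts, 2 held this motif (0.0095%), those of Sgk1 and of Acnat2, and the Acnat2 match lay outside the peaks. Because the Sgk1 match was known before the search, this share does not measure how rare it is. A match of letters is a description and does not show that the receptor binds there. Nr3c1, the glucocorticoid receptor gene, had a gene-end peak, as 53.8% of all protein-coding genes did, and 5741 acetylated bp inside it.

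None of the 8 windows before Foxo1, Foxo3 and Sgk1 starts held the FOXO motif, which 2.64% of all windows hold. The Foxo1 window was 56.0% G or C with 20 CpG, 2 GC box and 3 CCAAT box matches. The Foxo3 window was 76.4% G or C with 31 CpG and 5 GC box matches. Both windows lay wholly inside a peak. Of all windows, 43.1% hold a GC box match, 35.6% a CCAAT box match and 11.7% a TATA box match, and 6.64% hold the STAT motif and 6.17% the AP-1 motif. The 1 STAT match among the 8 windows lay before Sgk1 start 1, outside the peaks.

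Away from its starts, Sgk1 had a second group of peaks deep in the upstream part of the gene. With peaks joined across gaps of up to 5000 bp, 6 peaks of 140 to 646 bp formed a group at 21905535 to 21912170, 23351 to 29986 bp after start 1 and 82496 bp before start 6. This group covered 2259 bp, or 37.4% of the acetylated length in the gene, nearly as much as the 2334 bp (38.7%) of the group around starts 4 to 6. Between them lay a lone peak of 533 bp, a pair of 450 and 246 bp and a lone peak of 215 bp. Of the 13 peaks, 10 were under 500 bp. The 3 of 500 bp or more held 3049 of the 6037 acetylated bp.

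Sgk3 had the lowest acetylated share of its own length among the 5 genes. The gene (Gene ID 170755) spans 104441 bp on chromosome 1, 9798130 to 9902570. A peak of 595 bp lay over its lower-coordinate end, from 142 bp outside to 452 bp inside. Among genes with a gene-end peak, this width was at percentile 8.67, against 96.3 for Foxo1, 92.8 for Foxo3 and 61.6 for Foxo4. Inside the gene lay 4 more peaks of 140 to 852 bp, up to 61701 bp from that end, and the gene had 2285 acetylated bp in all, 2.19% of its length. Of the 7 flank peaks, 5 were 1203 to 3143 bp wide, wider than any in the gene, and the other two were 100 and 221 bp. Among the 7, 4 lay at ends of neighbours: Mybl1, Vcpip1, Mcmdc2 and, for a peak of 221 bp, Tcf24 and Ppp1r42. The peak of 3143 bp also overlapped Snhg6, a noncoding host gene of small nucleolar RNAs.

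**Figure D3:**
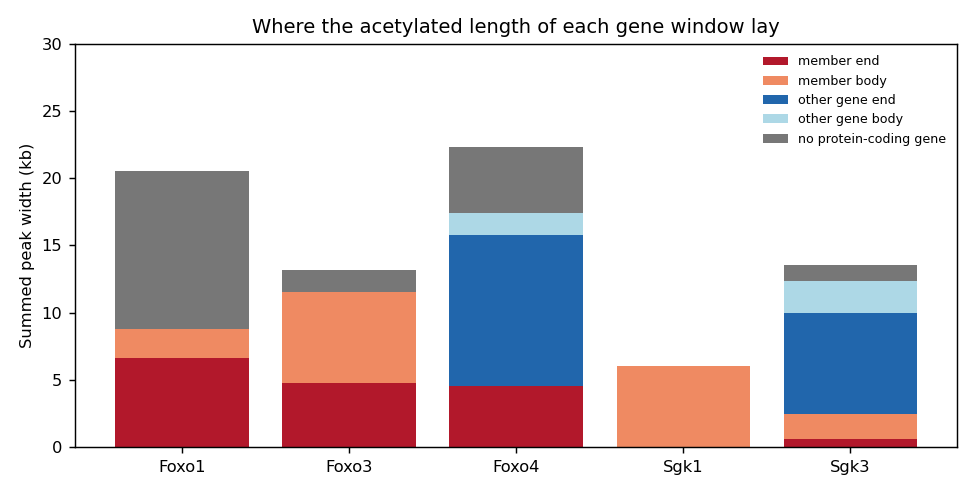
Summed width in kb of the peaks in each gene window (gene and 100 kb on each side), stacked by where the peaks lie. Sgk1 has 6037 bp, all inside the gene, while 11209 bp of the Foxo4 window and 7532 bp of the Sgk3 window are at ends of other genes alone; the 1480 and 785 bp peaks that lie at ends of both Foxo4 and Gm614 are counted for Foxo4.

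Set beside genes of like length, the members differed in rank. Of the 200 protein-coding genes closest in length, 29 had more acetylated bp inside than Foxo1, 35 more than Foxo3, 22 more than Foxo4, 42 more than Sgk1 and 93 more than Sgk3. The medians of these genes were 1778 bp for Foxo1, 2178.5 bp for Foxo3, 128 bp for Foxo4, 1990 bp for Sgk1 and 2082.5 bp for Sgk3. By number of peaks inside, Sgk1 stood higher than by length covered, since 17 of its 200 had more than its 13 peaks. Foxo3, Foxo4 and Sgk3 also stood higher by number of peaks, and Foxo1 stood lower. Foxo4, with 3 peaks, was exceeded by 8, Foxo3, with 9, by 30, Foxo1, with 7, by 40 and Sgk3, with 5, by 58. By acetylated bp inside, Sgk3 thus lay near the middle of its like-length genes, and the other 4 above the upper quartile of theirs. By number of peaks Sgk3 was above the middle, with 5 against a median of 3.

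**Figure D4:**
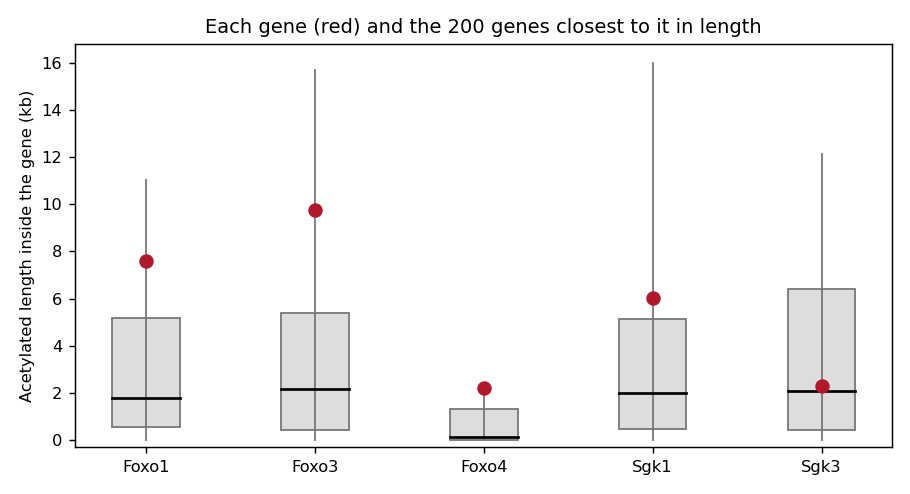
Acetylated length inside each gene in kb (red points) beside the 200 protein-coding genes closest to it in length (box: quartiles, line: median, whisker: lowest value to percentile 90). Foxo1, Foxo3, Foxo4 and Sgk1 lie above the box and Sgk3, at 2285 bp, near the median of 2082.5 bp.

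Over the 75 peaks of the 5 windows the median width was 545 bp, close to the 579 bp of the whole list. The 7 peaks at member gene ends had a median of 1480 bp and the 31 inside the member genes 381 bp. Peaks at no protein-coding gene numbered 22, of which Foxo1 had 15. In the gene and 20 kb on each side, Foxo1 had 11543, Foxo3 11552, Foxo4 14029, Sgk1 6037 and Sgk3 2427 acetylated bp. These values were at percentiles 91.3, 91.3, 94.0, 76.0 and 50.3 of all protein-coding genes. By this measure each of the 3 FOXO genes had more acetylated bp than either SGK gene. The Foxo4 value, however, includes the peaks on Il2rg and Med12. Peaks at the Foxo4 ends summed to 4543 bp, less than Sgk1 had, so the place of Foxo4 in this order rests on neighbouring peaks. Inside the genes alone the order was different, with Foxo3 at 9749, Foxo1 at 7579, Sgk1 at 6037, Sgk3 at 2285 and Foxo4 at 2191 bp.

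The remaining paralogs of both families had no peak inside the gene. Foxo6 (Gene ID 329934, chromosome 4, 120267078 to 120287261), a FOXO factor known from brain, had no peak in or within 100 kb of the gene, and the nearest was 117474 bp away. Of all protein-coding genes, 17.5% had no peak in such a window. Sgk2 (Gene ID 27219, chromosome 2, 162987327 to 163014139) had none inside and the nearest 2647 bp away, among 5 in its window. Each family thus had marked members and a member with no peak inside.

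Other genes of the pathway were mostly marked at an end. Of 79 genes on 7 lists, 66 (83.5%) had a gene-end peak, and the median acetylated length in the gene and 20 kb on each side was 6569 bp, against 53.8% and 2399 bp over all protein-coding genes. The lists were chosen with earlier results of these data known, and all protein-coding genes are not matched to them in length or expression. The difference is therefore a description and is not read as a trait of the pathway. All 11 genes of PI3K subunits and lipid phosphatases had a gene-end peak, with a median of 13187 bp. Inpp4b, a lipid phosphatase gene, had 132882 bp, Pik3cd, which encodes the leukocyte catalytic subunit, 31292 bp and Pik3r5, a regulatory subunit gene, 24910 bp. Of 13 genes for kinases and complexes upstream of SGK and FOXO, 12 were marked, with a median of 4986 bp. The longest there were Rptor (15436 bp), a subunit of mTORC1, Pdpk1 (12534 bp), which encodes the kinase that activates AKT and SGK, and Akt1 (8067 bp). Inside the gene, Rptor had 13117, Pdpk1 5812 and Akt1 1990 bp. Lengths given here and below for pathway genes include the 20 kb flanks, where peaks of other genes can lie.

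Among FOXO partners and modifiers, 14 of 17 genes had a gene-end peak and the median was 6500 bp. Ywhaz, which encodes a 14-3-3 protein, had 20305 bp without a gene-end peak, Stk4, the gene of the kinase MST1, had 14268 bp and Sfn, another 14-3-3 gene, 11869 bp, of which 602 bp lay inside the gene. Skp2 and Usp7 also had none at an end. Of FOXO target genes in lymphocytes and dividing cells, 15 of 15 were marked, with a median of 9457 bp. Ccr7, a homing receptor gene, had 34547 bp, Il7r, the IL-7 receptor gene, 20667 bp and Cdkn1b, the gene of the cell cycle inhibitor p27, 17177 bp.

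FOXO target genes known from muscle and liver were marked at 3 of 7, with a median of 1723 bp. Fbxo32, a ubiquitin ligase gene of muscle wasting, had 14475 bp, Irs2 10862 bp and Insr 7026 bp, the latter 2 being genes of insulin signalling. G6pc, Igfbp1 and Pck1, genes of liver, had no gene-end peak. Of 14 SGK substrates and regulators, 11 were marked, with a median of 6374 bp. The longest were Il23r (25062 bp), Wnk1 (19389 bp), a kinase gene of ion transport, and Ndrg1 (8566 bp), whose product is a standard readout of SGK activity. Il23r is on this list as a gene that SGK1 favours through FOXO1, not as a substrate or regulator. It is also among the Th17 markers below. Nedd4l, a ubiquitin ligase that SGK1 phosphorylates, had no gene-end peak but 11 peaks inside, and the sodium channel genes Scnn1b and Scnn1g had 0 bp. Another sodium channel gene, Scnn1a, counted as marked by a peak near an end, with 6569 bp, of which 0 lay inside the gene.

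**Figure D5:**
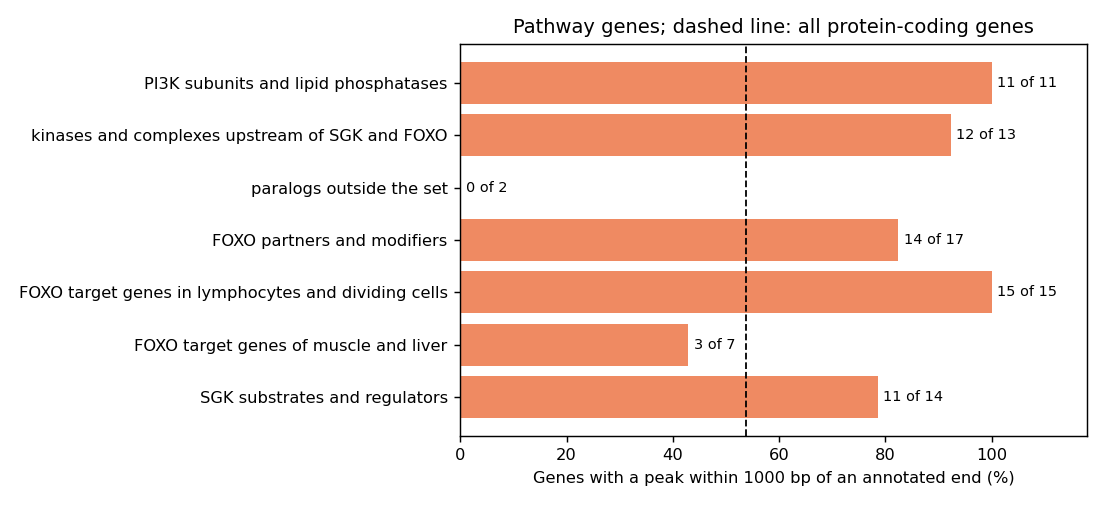
Share in percent of the genes of each pathway list with a peak within 1000 bp of an annotated end; labels give counts and the dashed line is the share of all protein-coding genes, 53.8%. The lists of PI3K genes and of FOXO targets in lymphocytes and dividing cells are at 100%, the muscle and liver targets at 42.9% and the paralogs Foxo6 and Sgk2 at 0.

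As a check of the cell type label, 5 of 5 T cell markers and 6 of 7 Th17 markers had a gene-end peak. Rora was the exception, with 101 peaks inside the gene. This held for 1 of 2 CD8 markers (Cd8b1), 1 of 4 B cell markers (Cd79a) and 0 of 5 myeloid markers. Acetylated length in the gene and 20 kb on each side was 14063 to 38735 bp over the T cell markers and 0 to 4439 bp over the myeloid markers. The B cell markers ranged from 0 to 14881 bp and the CD8 markers from 0 to 1465 bp, and their part in the results was not tested. The highest B cell value was that of Cd79a, of which 687 bp lay inside the gene.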

How the data were processed

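H3K27ac ChIP-seq of cultured mouse Th17 cells was deposited as 1 list of peak positions, and the authors gave no score, fold or signal for a peak. MACS peaks were called against input DNA, per the labels of the series. Bowtie2 2.3.4.1, SAMtools 1.9, MACS2 2.2.6, deepTools and GRCm38 (mm10) are named, per the submitters' processing notes. No source used here states thresholds, filters or pooling of replicates.

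The deposited starts were read as 0-based and are printed 1-based. Chromosomes 1 to 19 and X hold 56284 of the 56285 peaks. The RefSeq gene table has no strand, so a gene end is either annotated end. Transcript starts were in the table for 17274 of 21631 protein-coding genes. An overlap is at least 1 bp, and acetylated length is clipped to the gene or window. A percentile is the share with a lower value, ties counted by their midpoint. No tests were run, since the list is 1 sample and genes are not replicates. The overlap code was tested on simulated intervals. The member genes and lists were chosen with earlier results of these data known.

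Named were the member genes, Foxo6 and Sgk2, neighbours with peaks and, for each pathway list, the 3 genes longest in acetylated bp and the alphabetically first 3 that lacked a gene-end peak. Nr3c1, Acnat2, Scnn1a, the cell type markers given by name and the genes with a FOXO motif were named after their values were seen. A gene that the rule names is not reported here. Python 3.11.15, numpy 2.4.6 and pandas 2.3.3 were used.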

Additional observations from a re-analysis of the deposited data

How the results depend on the processing

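No paired analysis was possible because the deposited list carries no replicate. The count of 75 peaks was 47 with 20 kb flanks, 45 with peaks at most 1000 bp apart merged 41 without peaks under 500 bp, and 53 with 50 kb flanks. The 1 wide internal peak of Sgk1 became 3 with a minimum of 500 bp, 0 with 2000 bp and 3 with peaks at most 1000 bp apart merged, since these settings change which peaks count as wide. Sgk1 had no gene-end peak under any of the 4 window, midpoint and width settings, and Foxo4 was the 1 gene in a domain under both domain settings. Marked gene ends numbered 4 of 5 under each setting except the peak midpoint, which gave 3, without Foxo1, whose wide peak has its midpoint 2106 bp inside. Pathway genes with a gene-end peak numbered 53 to 67. With settings chosen after seeing the data, 2 to 4 of the 6 Sgk1 starts were marked, 2 without peaks under 500 bp. Acetylated length inside the 5 genes, 27841 bp, ranged from 22103 to 31079 bp. Read depth is unknown, so a missing peak cannot be told apart from one too weak to be called.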

Other observations

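The running numbers in the peak names go from 15 to 71449 and 15150 of them (21.2%) are not used in the list. Between the first and last peak of the 5 gene windows, 14 numbers are not used, 6 of them at Foxo1, 4 at Sgk3, 2 at Foxo4 and 1 each at Foxo3 and Sgk1.

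The FOXO motif GTAAACA, searched on both strands of the 250 bases before each start, was found for 1 of 12 FOXO target genes of lymphocytes and dividing cells with a start in the table, Bcl2l11, and for 1 of 5 of the muscle and liver targets, Trim63. Among PI3K genes it was found for 1 of 10, Pik3cg, and among upstream kinase genes for 2 of 12, Akt1 and Mapkap1. It was also found for 1 of 14 FOXO partners and modifiers, Mdm2, and 1 of 9 SGK substrates and regulators, Ndrg2. Of all windows, 2.64% hold it, and a gene can have more than 1 window. With so few matches these counts are a description and set no list apart. No match says only that these letters are not in this window.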
